A study of Mus musculus with 12 samples.

Results

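Gene expression in whole mouse embryos that carried a disrupted Mfsd12 gene (Mfsd12 Knockout) was compared with that of wild-type embryos, 4 embryos against 4 of the 12 in the series. The 8 were taken by the genotype in their labels, and every gene with enough counted reads entered the comparison, 20771 of the 41079 genes in the table. The embryos came from timed matings of heterozygous Mfsd12 breeders, were collected between 10.0 and 11.0 days after fertilization, and each is a separate animal. The labels name no strain, allele, sex or stage for any single embryo, and they state that development was refined computationally, without the result. The other 4 embryos are labelled heterozygous and added only to the estimate of spread. Titles begin with a number of unstated meaning: it is 14, 4, 18 and 15 in knockout embryos 1 to 4, and 18, 18, 4 and 4 in wild-type embryos 1 to 4. Numbers 4 and 18 therefore each hold 1 knockout and 2 wild-type embryos, while 14 and 15 hold no wild-type embryo.

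The product of Mfsd12 sits in the membranes of lysosomes and melanosomes, which need it to take up cysteine. Cysteine is the scarce building block of glutathione, the main reduced thiol of the cell. When amino acids run short or proteins misfold, cells translate the transcription factor ATF4, which switches on amino acid transporters, amino acid synthesis enzymes and tRNA synthetases. At midgestation the embryo depends on primitive red blood cells made in the yolk sac, lays down its brain regions in order, and still extends at the tail bud.

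Between 53133084 and 67977990 reads were counted per embryo. Knockout 3 (title number 18) stood apart by genes of yolk sac and liver, wild-type 1 (also 18) by its globin share (8.64% of counts, and 1.84% to 2.95% in wild-type 2 to 4) and knockout 4 by ribosomal and long noncoding RNA. Ribosomal RNA genes took 0.150%, 0.0753%, 0.102% and 0.384% of the reads in knockout 1 to 4, and 0.0481% to 0.0656% in wild-type embryos. The groups did not overlap (exact two-sided permutation p = 0.0286, the smallest that 4 against 4 can give, 0.0857 adjusted over 3 shares). Globin genes took 0.519% to 1.93% of the reads in knockout embryos (permutation p = 0.0571, adjusted 0.0857), and mitochondrial genes 2.75% ± 0.430 (SD, n = 4) against 1.98% ± 0.747 (permutation p = 0.114, adjusted 0.114). Markers of heart, brain, blood, gut and liver were all detected, as the label whole embryo implies, while 4 of 13 trophoblast and decidua markers passed the filter. Xist was high and the Y-linked Ddx3y at 0 in knockout 1 and wild-type 2, 1 embryo of each genotype.

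Mfsd12 (chromosome 10, 81193325 to 81202059, plus strand, GRCm39) had 3.22, 2.78, 3.57 and 2.31 CPM (counts scaled to a common library total) in knockout 1 to 4 and 12.7, 16.2, 9.48 and 9.38 CPM in wild-type 1 to 4. Every knockout embryo lay below every wild-type embryo. From here on, 4 values always stand in the order of embryos 1 to 4. The log2 fold change was -2.01 ± 0.33 SE (exact permutation p = 0.0286, and in edgeR p = 3.71e-05 with an adjusted p = 0.385). Tektip1, whose span lies inside that of Mfsd12 on the other strand, had 0.438, 0.6299, 0.611 and 0.383 against 2.32, 2.695, 1.51 and 1.46 CPM, and strand was not used in counting, so reads of these genes cannot be told apart. The library labelled heterozygous 2 had 2.58 CPM of Mfsd12, inside the knockout range. Of 245 genes tested within 5 Mb of Mfsd12, 5 had a higher and 8 a lower estimate at an unadjusted edgeR p under 0.05, or 5.31% against 8.33% of all genes. Besides Tektip1 they included Gng7, a G protein subunit, at a log2 fold change of -0.71 ± 0.27 SE, and the mitochondrial folate enzyme gene Aldh1l2 at 2.75 ± 1.05 SE. Distances are in bases from Mfsd12, negative before its start. Lower genes besides Tektip1 lay at 43350 (Gm16104), 93002 (Celf5), -126288 (Atcay), 193219 (Tle5), -342583 (Gng7), 680222 (Gm46195) and -1184705 (Cirbp). Higher genes lay at -258619 (Creb3l3), -1402473 (Arid3a), 2118327 (Aldh1l2), -3939200 (Adarb1) and -4767153 (Ftcd). Most lower genes thus lay nearer to Mfsd12 than most higher genes, a difference that was not tested. Aldh1l2 had 99.4, 25.4, 9.13 and 10.8 against 4.13, 5.26, 6.99 and 5.04 CPM, so its mean rested largely on knockout 1.

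No gene passed the adjusted threshold of 0.05 in edgeR (0%, with the smallest adjusted p of 0.106 for Chac1). Words such as higher and lower below therefore describe estimates and the position of embryos, and counts of genes are read against the same counts over all 20771 genes. At an unadjusted edgeR p under 0.05, 882 genes (4.25%) had a higher and 848 (4.08%) a lower estimate in knockout embryos. Estimates were higher in 51.3% and lower in 48.7% of all genes. In 333 genes (1.6%) all 4 knockout embryos lay above all 4 wild-type embryos, and in 379 (1.82%) below. In 2335 genes (11.2%) the knockout embryo lay above both wild-type embryos within title number 4 and again within 18, and in 2276 (11%) below in both. All 3 conditions held together for 0.963% of genes in the higher and 1.15% in the lower direction. DESeq2 called 90 genes higher (0.433%) and 32 lower (0.154%), and limma voom called 0. Tissues and functions are described by 64 gene lists, of whose 1068 members 1041 were tested.

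The kinds of transcript differed between the directions. Of 15788 protein-coding genes tested, 510 had a higher and 732 a lower estimate at an unadjusted p under 0.05, which is 3.23% and 4.64%. Of 3128 long noncoding RNAs the counts were 208 and 77, or 6.65% and 2.46%. All 15 small nuclear RNAs, 15 small nucleolar RNAs and 10 tRNAs that reached this p had higher estimates, of 52, 143 and 28 tested. Small nuclear RNA genes took 0.0132%, 0.00391%, 0.00532% and 0.0345% of reads in knockout embryos and 0.00305%, 0.00574%, 0.00245% and 0.00317% in wild-type embryos, so knockout 1 and 4 were high and the groups overlapped. Long noncoding RNA took 2.49%, 1.88%, 1.94% and 3.85% against 1.66%, 2.17%, 1.68% and 1.85%. The part of RNA quality or selection in these counts was not tested. Of the 122 genes called by DESeq2, 70 were protein-coding (44 higher and 26 lower), 22 higher and 3 lower were long noncoding, and 10 higher were small nuclear RNAs.

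The embryos of 1 genotype were far from alike. Among 12095 genes with at least 5 CPM on average, the median SD of log2 CPM was 0.22 over knockout and 0.27 over wild-type embryos, and in 42.4% of genes it was larger among knockout embryos. Knockout 4 lay above all 4 wild-type embryos in 2825 of these genes and below all in 3712. Knockout 3 was the closest to the wild-type range, with 1361 genes above and 1385 below. Wild-type 1 lay above all 4 knockout embryos in 4165 genes and below all in 4085, more than any other embryo.

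The title numbers gave different pictures of the same genotype. Over genes with at least 5 CPM, the difference of knockout 2 from the wild-type embryos of title number 4 and that of knockout 3 from those of title number 18 had the same sign in 35.7% of genes, with r = -0.15 across genes as a description. These 2 differences share no embryo. Taking a single wild-type embryo for each side gave shares of the same sign between 34.1% and 40.9%. A gene or list that held within both numbers was therefore the less usual case, and such cases are reported first below.

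**Figure D1:**
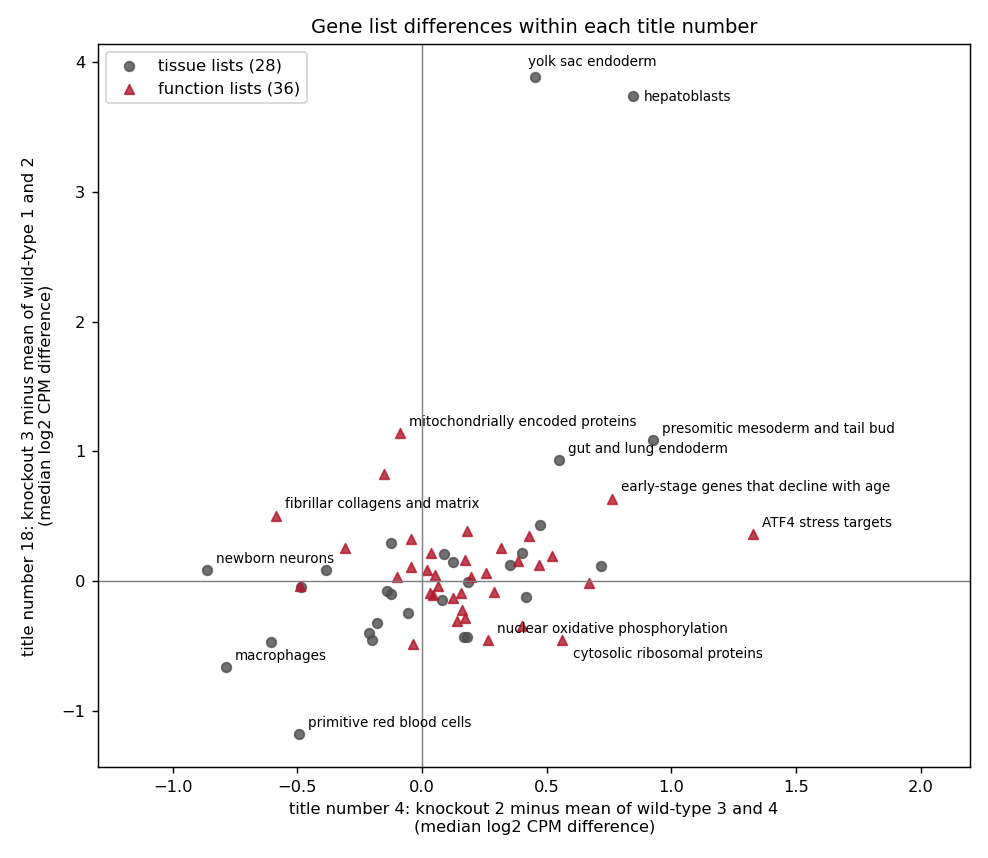
Each point is 1 of 64 gene lists (28 of tissues as grey circles, 36 of functions as red triangles). The horizontal axis is the list's median log2 CPM difference within title number 4, the vertical axis that within title number 18; hepatoblast and yolk sac lists lie far up at 3.74 and 3.89 in title number 18, ATF4 stress targets lie at 1.33 and 0.36, and cytosolic ribosomal proteins at 0.56 and -0.46.

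The leading genes with higher estimates included genes of amino acid stress, endoderm and Hedgehog signalling. They are the 12 with the smallest p among 173 genes at 2 CPM or more whose genotypes did not overlap and whose direction held within both title numbers. Each had an adjusted edgeR p of 0.537 apart from Chac1. Chac1 (chromosome 2, 119181723 to 119184807, GRCm39) encodes an enzyme that splits glutathione, and it had 33.1, 29.6, 4.27 and 14.96 against 0.895, 0.667, 0.2096 and 0.556 CPM. Knockout 1 and 2 were highest and knockout 3 was lowest of its group, yet above every wild-type embryo. The log2 fold change was 5.14 ± 0.704 SE. Sesn2, a stress-induced sensor in the control of growth signalling, had 97.8, 60.7, 21.9 and 35.6 against 12.9, 13.04, 10.6 and 13.8 CPM, a log2 fold change of 2.101 ± 0.398 SE. Slc1a4, a neutral amino acid transporter, had 125, 81.3, 42.7 and 54.5 against 29.97, 32.9, 33.6 and 37.3 CPM (1.18 ± 0.28 SE). These genes shared the order of knockout embryos seen in Chac1: 1 was highest, then 2, then 4, then 3.

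Another set of leading genes was highest in other embryos. Gli1, the transcription factor that reports Hedgehog signalling, had 48.8, 49.8, 38.9 and 50.2 against 24.5, 33.01, 27.998 and 33.8 CPM, a log2 fold change of 0.65 ± 0.15 SE. Here 3 knockout embryos were close together and knockout 3 was the lowest of them. Foxa2, a regulator of endoderm and floor plate, had 1.53, 3.35, 2.66 and 2.73 against 0.826, 0.942, 1.38 and 1.303 CPM (1.21 ± 0.303 SE). Prdm1, a repressor used by germ cells and several epithelia, had 5.52, 7.86, 6.397 and 10.97 against 2.13, 3.29, 3.83 and 3.96 CPM (1.22 ± 0.27 SE). In both genes the lowest knockout embryo was knockout 1, and it still lay above all wild-type embryos. The epithelial surface gene Plet1 had 2.704, 2.98, 11.9 and 7.602 against 0.654, 0.435, 1.54 and 1.67 CPM, with knockout 3 highest. The other leading genes were Cpn1, B4galnt2, Sel1l3, Pramel13 and Serpinb9b, whose log2 fold changes ranged from 1.04 to 7.48. Cpn1, B4galnt2, Sel1l3 and Pramel13 were highest in knockout 3. Serpinb9b had 0.146, 0.265, 1.19 and 16.8 CPM in knockout and 0.0344, 0, 0.0599 and 0 CPM in wild-type embryos, so its mean came almost wholly from knockout 4.

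Leading genes with lower estimates included several genes of neurons, 1 of heart muscle and 1 of motile cilia. They are the 12 with the smallest p of 236 that met the same conditions. Kif1a, a motor protein that carries synaptic vesicle precursors along axons, had 17.7, 25.4, 40.3 and 23.5 against 51.6, 59.7, 64.9 and 41.4 CPM, a log2 fold change of -1.03 ± 0.23 SE. Ap3b2, the neuronal subunit of an adaptor that sorts proteins to lysosome-related organelles, had 7.31, 7.06, 7.33 and 5.69 against 10.001, 10.9, 12.5 and 9.398 CPM (-0.64 ± 0.17 SE). The receptor gene Ephb1, which guides axons, had 4.38, 5.74, 7.51 and 5.85 against 9.95, 11.9, 10.4 and 10.9 CPM (-0.88 ± 0.22 SE). In all 3 genes knockout 3 was the highest of its group and still below every wild-type embryo. Vxn, a gene of neuronal differentiation, had a log2 fold change of -1.49 ± 0.39 SE.

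Nppa, the atrial peptide gene of heart muscle, had 25.7, 16.5, 23.3 and 8.58 against 61.9, 50.3, 31.9 and 47.1 CPM, a log2 fold change of -1.37 ± 0.35 SE. Dnai2, a motor part of motile cilia, had 0.512, 0.895, 1.405 and 0.429 against 2.55, 2.17, 2.64 and 2.14 CPM (-1.55 ± 0.37 SE). Knockout 4 was lowest for both. Ucp2, a mitochondrial carrier abundant in blood cells, had 32.8, 47.7, 64.4 and 24.3 against 248, 132, 77.9 and 73.6 CPM (-1.65 ± 0.399 SE). Wild-type 1 was far above the other wild-type embryos for Ucp2, as it was for globin. With single embryos left out, the log2 fold change of Ucp2 ranged from -1.92 to -1.16. Dapk2, Pgm5, Dhrs11 and Hid1 were also in the set, with log2 fold changes between -1.44 and -0.86.

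**Figure D2:**
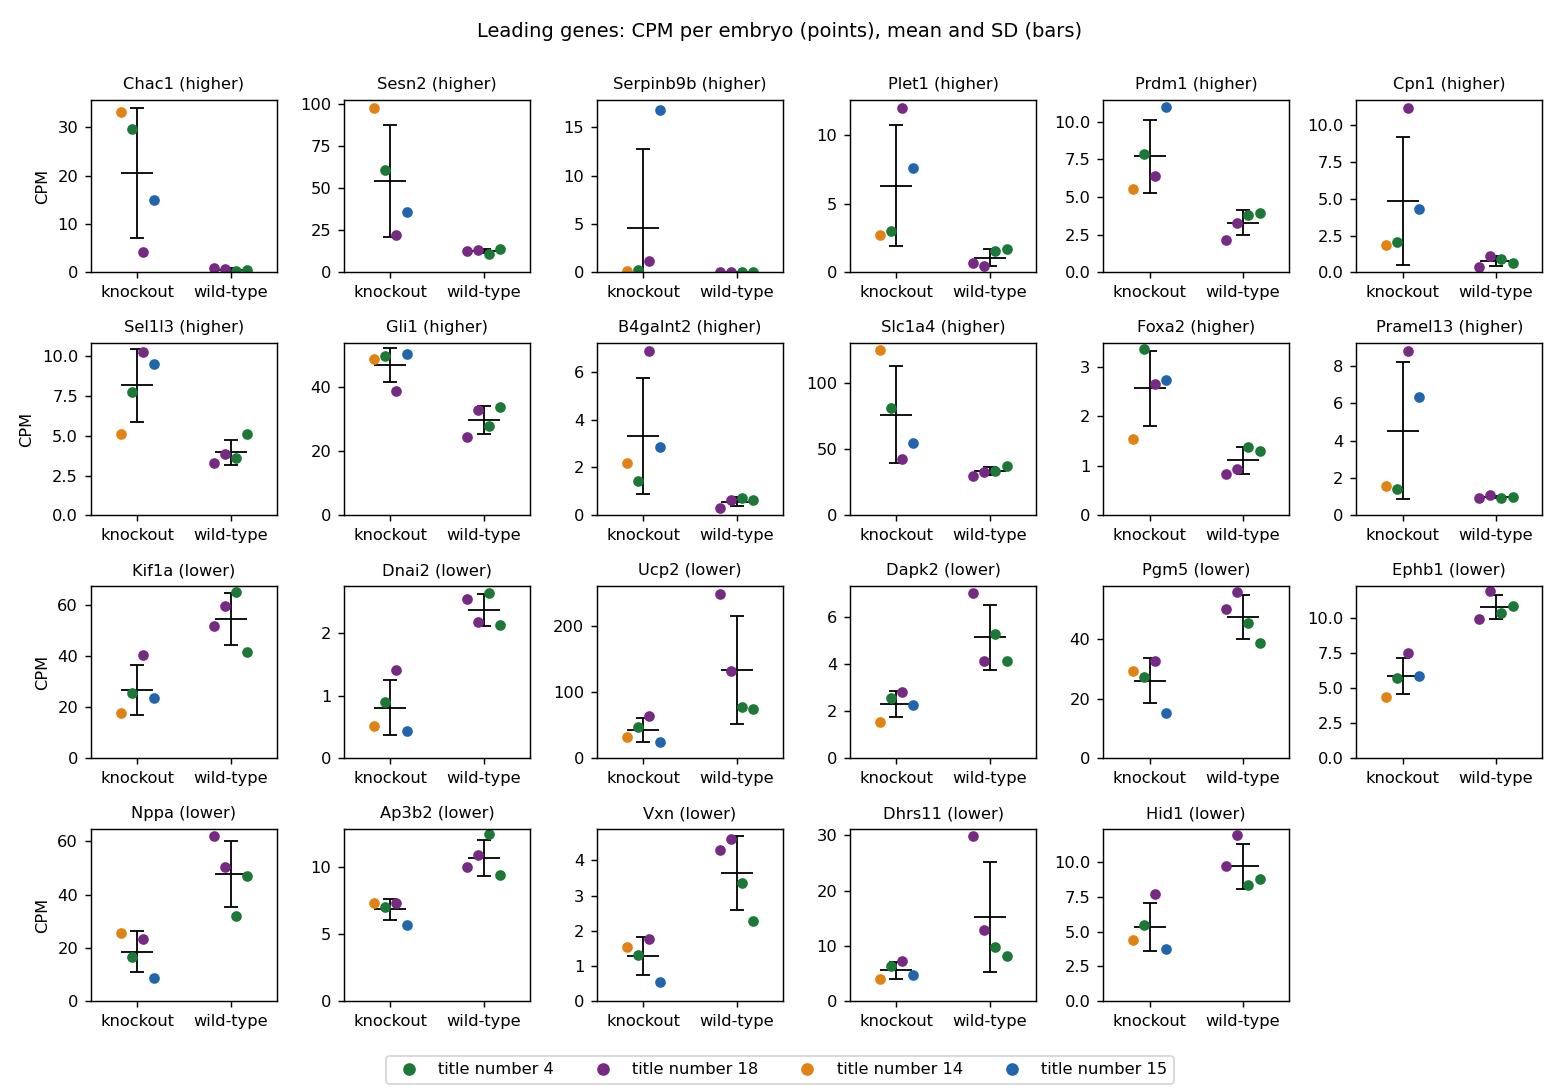
Each panel shows 1 leading gene with CPM on the vertical axis, knockout and wild-type embryos side by side, a point per embryo coloured by title number, a line at the mean and bars for the SD, cut at 0. In every panel the 4 knockout points lie on 1 side of the 4 wild-type points, and in Serpinb9b, Cpn1 and B4galnt2 a single knockout embryo lies far above the others.

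ATF4 stress targets were higher in every knockout embryo, by very different amounts. Of 34 members tested (of 36 listed), 32 had a higher estimate, 23 at an unadjusted edgeR p under 0.05, and 22 lay above both wild-type embryos in both title numbers. In 14 members the genotypes did not overlap. The median log2 fold change of the list was 1.29, against 0.01 over all genes tested. The median member lay 2.14, 1.25, 0.30 and 0.78 above the wild-type mean in knockout 1 to 4 (log2 CPM), and within 0.10 of it in each wild-type embryo. It was thus highest in knockout 1 and lowest in knockout 3, and the list's difference was 1.33 within title number 4 and 0.36 within 18. Of the 34 members, 31 had their highest value of all 8 embryos in knockout 1. Leaving out single embryos gave medians of 0.86 to 1.53, a block of title number gave 0.77, and leaving out knockout 3 and wild-type 1 together gave 1.62 with 25 members at this p, where 4.29% of all genes had a higher and 5.25% a lower estimate at this p. The list was written with results of these data known, so its counts are a description.

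The members belong to several steps of amino acid supply. Psat1, an enzyme of serine synthesis, had 919, 603, 243 and 406 against 230.2, 156, 183 and 210.1 CPM (1.48 ± 0.51 SE). Slc7a11, which imports cystine in exchange for glutamate, had 93.1, 33.6, 18.5 and 16.7 against 8.62, 11.1, 10.2 and 9.398 CPM (2.04 ± 0.52 SE). Cth, which makes cysteine from cystathionine, had 158, 54.6, 23.2 and 34.1 against 19.5, 16.7, 20.5 and 19.1 CPM (1.83 ± 0.65 SE). In all 3 genes the knockout embryos lay above the wild-type embryos, knockout 1 stood far out, and knockout 3 or 4 came close to the wild-type range. Atf3, a stress transcription factor, had 14.3, 12.6, 5.59 and 8.98 against 3.92, 3.36, 2.95 and 3.14 CPM (1.63 ± 0.503 SE). Slc38a2, a transporter of small neutral amino acids, had 353, 334, 279 and 351 against 134, 209, 291 and 292 CPM, and there the groups overlapped because knockout 3 was below wild-type 3 and 4.

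Promoters of these genes, 250 bases before to 50 after the start in RefSeq on GRCm38.p6, were searched for TGATGNAA, the letters that ATF4 binds with its partners, on either strand. It was found in 9 of 36 promoters of 29 list members, in 7.04% of 71 promoters of the 100 genes with the smallest p and a higher estimate, in 4.35% of 92 for the 100 with a lower estimate, and in 2.55% of 19089 promoters of all genes tested. A match is a description of the letters, not a bound site. The list was written as known ATF4 targets, so its own share describes the choice of genes and not these embryos. Shown are 3 members with different functions and a clear difference, with the matches in capitals: Chac1 (chr2:119350992-119351291, plus strand, match at -193 from the start), Slc1a4 (chr11:20332664-20332963, minus strand, match at -4) and Slc7a11 (chr3:50443564-50443863, minus strand, 2 matches).
Chac1: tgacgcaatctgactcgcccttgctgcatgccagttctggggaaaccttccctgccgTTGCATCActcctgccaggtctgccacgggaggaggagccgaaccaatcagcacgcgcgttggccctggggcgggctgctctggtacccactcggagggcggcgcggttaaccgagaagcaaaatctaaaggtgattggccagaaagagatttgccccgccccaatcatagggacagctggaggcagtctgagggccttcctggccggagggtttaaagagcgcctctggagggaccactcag
Slc1a4: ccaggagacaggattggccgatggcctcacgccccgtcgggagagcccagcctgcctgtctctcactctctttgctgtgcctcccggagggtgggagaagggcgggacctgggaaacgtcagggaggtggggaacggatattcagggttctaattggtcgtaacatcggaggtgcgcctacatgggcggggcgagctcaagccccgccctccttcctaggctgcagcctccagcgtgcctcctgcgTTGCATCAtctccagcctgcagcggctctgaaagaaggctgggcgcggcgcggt
Slc7a11: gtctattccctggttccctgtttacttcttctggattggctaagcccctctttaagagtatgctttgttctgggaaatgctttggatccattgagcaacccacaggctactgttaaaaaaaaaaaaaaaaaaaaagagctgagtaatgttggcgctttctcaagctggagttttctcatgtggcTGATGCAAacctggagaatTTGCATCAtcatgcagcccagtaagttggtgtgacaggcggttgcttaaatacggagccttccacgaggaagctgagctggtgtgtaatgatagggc

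Other stress lists had fewer members apart from the background. Of 20 cytosolic aminoacyl-tRNA synthetases, which load amino acids onto tRNA, 18 had a higher estimate, 8 at an unadjusted p under 0.05 and 5 within both title numbers. Cars1, the cysteinyl-tRNA synthetase, had 187, 154, 71.4 and 101 against 68.7, 54.3, 63.8 and 78.7 CPM (0.95 ± 0.29 SE), with knockout 1 and 2 high and knockout 3 inside the wild-type range. Among 19 chaperones of the endoplasmic reticulum, 10 estimates were higher and 9 lower, with 1 at this p. That member was Herpud1, which acts in degradation of misfolded proteins, at 0.61 ± 0.24 SE. None of 13 cytosolic heat shock genes reached this p in either direction, and their median was 0.03. NRF2 antioxidant targets split into 10 higher and 10 lower estimates, with 1 and 4 at this p. The 1 higher member was Slc7a11, and the lower ones included the quinone reductase Nqo1 (-1.07 ± 0.41 SE) and the ferritin subunit Fth1 (-0.98 ± 0.35 SE). Wild-type 1 was highest for 10 of the 20 members. Its summed level was 4719 CPM, against 2259 to 3101 CPM in the other embryos. Without knockout 3 and wild-type 1, 2 members were higher and 1 lower at this p. The median was -0.05, and 0.03 without wild-type 1 alone.

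Of 20 p53 targets, 4 had a higher and 2 a lower estimate at an unadjusted p under 0.05, and 7 were higher and 3 lower within both title numbers. Sesn2, 1 of the 4, is also in the ATF4 list. Eda2r, a death receptor of the TNF family, had 11.9, 16.9, 7.56 and 19.8 against 2.39, 2.87, 5.46 and 5.89 CPM (1.76 ± 0.62 SE). All knockout embryos were above all wild-type embryos, with knockout 4 and 2 highest. The nuclease gene Aen had 66.8, 90.4, 57.8 and 90.9 against 57.04, 49.9, 53.03 and 59.7 CPM (0.48 ± 0.16 SE), where knockout 3 overlapped wild-type 4, and Sesn1 pointed the other way at -0.601 ± 0.19 SE. In the list of HIF targets and glycolysis, 23 of 28 members had a higher estimate and 0 reached this p in either direction. Vegfa, which drives vessel growth, had 85.6, 63.3, 49.4 and 80.4 against 20.3, 29.6, 42.4 and 47.2 CPM (0.999 ± 0.66 SE), so the genotypes did not overlap although its edgeR p was 0.153. Of 17 apoptosis genes, 1 had a higher and 0 a lower estimate at this p.

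Genes of primitive red blood cells were lower in all knockout embryos. Of 20 members, 19 had a lower estimate, 18 at an unadjusted p under 0.05, 16 lay below both wild-type embryos in both title numbers, and in 12 the genotypes did not overlap. The median log2 fold change was -1.43. The median member lay -2.12, -1.11, -0.71 and -1.71 from the wild-type mean in knockout 1 to 4, and 1.11, -0.23, -0.30 and -0.54 in wild-type 1 to 4. Knockout 3, the highest knockout embryo, was thus near wild-type 4. The summed level of the list was 5385, 13904, 18938 and 8461 CPM in knockout and 92507, 28443, 20709 and 18206 CPM in wild-type embryos, and 19 of 20 members had their highest value in wild-type 1. Without wild-type 1 and knockout 3, 15 members still had a lower estimate at this p, with a median of -1.17, and without wild-type 1 alone the median was -0.94. In whole embryos without a stated stage, fewer red cells, less of these RNAs per cell and a difference in age cannot be told apart.

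Slc4a1, which exchanges chloride and bicarbonate across the red cell membrane, had 80.6, 185, 190.1 and 74.9 against 798, 333, 324 and 264 CPM (-1.696 ± 0.45 SE). Alas2, the first enzyme of heme synthesis in red cells, had 23.1, 77.4, 77.9 and 51.5 against 331, 115, 120.1 and 107 CPM (-1.55 ± 0.49 SE). Both were lowest in knockout 1 and 4, and no knockout embryo reached the wild-type range. Of 22 genes of heme synthesis and iron, 17 had a lower estimate and 10 did so at this p, against 0 higher. Slc25a37, which brings iron into mitochondria, had 71.5, 141, 125 and 112 against 365, 178, 212 and 189 CPM (-1.07 ± 0.36 SE). Without knockout 3 and wild-type 1, the count of this list was 3 and its median -0.28 in place of -0.60, and without wild-type 1 alone the median was -0.21. Gpx1, a glutathione peroxidase abundant in red cells, had 115, 185, 179 and 184 against 822, 292, 157 and 179.8 CPM (-1.13 ± 0.44 SE), and apart from wild-type 1 its groups overlapped.

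The letters AGATAA, read by GATA factors of the blood lineage, stood in 31.2% of 16 promoters of the red cell list, against 7.70% of 19089 over all genes tested, 8.70% of promoters of the 100 genes with the smallest p and a lower estimate, and 7.04% of those with a higher one. The share of the red cell list describes genes chosen as known red cell markers, not the difference between genotypes. The promoter of Alas2 (RefSeq, GRCm38.p6, chrX:150547167-150547466, plus strand) is shown because this gene had a clear difference and a match at -86. The match lies on the opposite strand, so it reads TTATCT in the capitals below.
Alas2: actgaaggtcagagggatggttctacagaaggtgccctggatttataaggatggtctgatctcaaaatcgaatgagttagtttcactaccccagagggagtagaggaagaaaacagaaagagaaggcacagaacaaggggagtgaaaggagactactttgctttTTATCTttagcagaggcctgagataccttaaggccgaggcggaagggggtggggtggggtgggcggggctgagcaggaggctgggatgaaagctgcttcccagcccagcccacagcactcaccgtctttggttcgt

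Macrophage genes were lower without a clean split. Of 16 members, 15 had a lower estimate, 4 at an unadjusted p under 0.05, and 11 were below both wild-type embryos in both title numbers, but in none did the genotypes separate. The median member lay -0.61, -1.60, 0.08 and -3.53 from the wild-type mean in knockout 1 to 4, and 1.08, 0.43, -0.71 and -0.67 in wild-type 1 to 4. Aif1, a calcium-binding protein of macrophages, had 1.08, 0.5305, 1.05 and 0.169 against 4.89, 3.01, 0.779 and 1.25 CPM (-1.81 ± 0.64 SE). Lyz2, the lysozyme of these cells, had 5.24, 1.13, 7.08 and 1.53 against 21.7, 13.3, 6.38 and 5.77 CPM (-1.65 ± 0.61 SE). Knockout 4 was near 0 for Aif1, where knockout 1 and 3 overlapped wild-type 3 and 4. For Lyz2 knockout 3 alone lay within the wild-type range. The list median was -1.16, -0.63 with a block of title number and -1.78 without knockout 3. Of 11 genes of blood stem and progenitor cells, 2 had a lower estimate at this p, and Tal1, a founder regulator of the blood lineage, had 13.6, 27.1, 31.4 and 16.9 against 79.6, 44.1, 35.7 and 33.7 CPM (-1.12 ± 0.399 SE), with no overlap. Megakaryocyte and platelet genes had 8 of 10 lower estimates and 0 at this p in either direction.

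**Figure D3:**
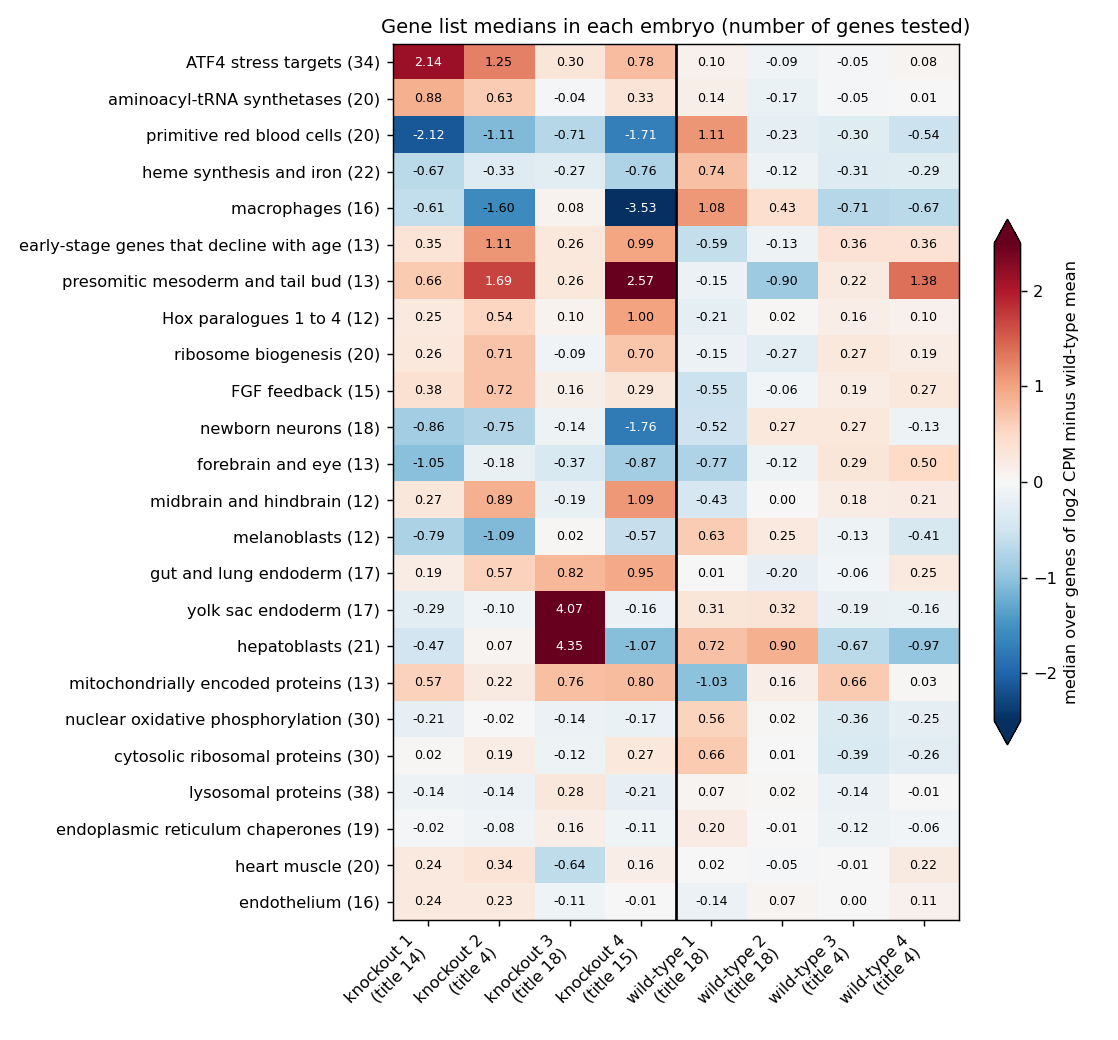
Rows are 24 gene lists with their number of genes tested, columns the 4 knockout and 4 wild-type embryos, and colour and numbers the median over genes of log2 CPM minus the wild-type mean, with the colour scale capped at 2.5 either way. Red cell lists are lowest in knockout 1 and 4 and highest in wild-type 1, ATF4 targets fade from 2.14 in knockout 1 to 0.30 in knockout 3, and yolk sac and hepatoblast genes reach 4.07 and 4.35 in knockout 3 alone.

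Genes that are high in the young embryo and decline as it grows had higher estimates throughout. All 13 members tested of this early-stage list were higher, 4 at an unadjusted edgeR p under 0.05, and 10 lay above both wild-type embryos in both title numbers, where 11.2% of all genes did. The genotypes overlapped in each of the 13. The median log2 fold change was 0.98, with 0.76 within title number 4, 0.64 within title number 18 and 0.70 to 1.10 with single embryos left out. The labels give no stage per embryo, so genotype and age of the embryo cannot be told apart in this list. The same limit holds for every other list whose genes change with age, among them tail bud, Hox, neuron, pigment and blood genes.

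Lin28a, an RNA-binding protein that holds back maturation of let-7, had 51.6, 259.9, 26.8 and 411 against 6.47, 8.78, 52.7 and 61.4 CPM (2.53 ± 0.98 SE). Prtg, a receptor of the early neural tube and mesoderm, had 54.8, 163, 23.04 and 394 against 5.56, 8.25, 47.6 and 49.6 CPM (2.52 ± 0.92 SE). Both genes split by title number as much as by genotype: wild-type 3 and 4 (title number 4) were close to knockout 1, wild-type 1 and 2 (title number 18) were the lowest embryos, and knockout 2 and 3 were each above the wild-type embryos of their own number. Mycn, a driver of growth in embryonic progenitors, had 92.5, 119.7, 60.8 and 118 against 33.1, 46.1, 57.4 and 61.8 CPM (0.98 ± 0.26 SE). Sall4, a pluripotency and tail bud regulator, had 28.6, 71.7, 17.9 and 88.5 against 5.42, 7.94, 29.3 and 38.8 CPM, with the same pattern.

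**Figure D4:**
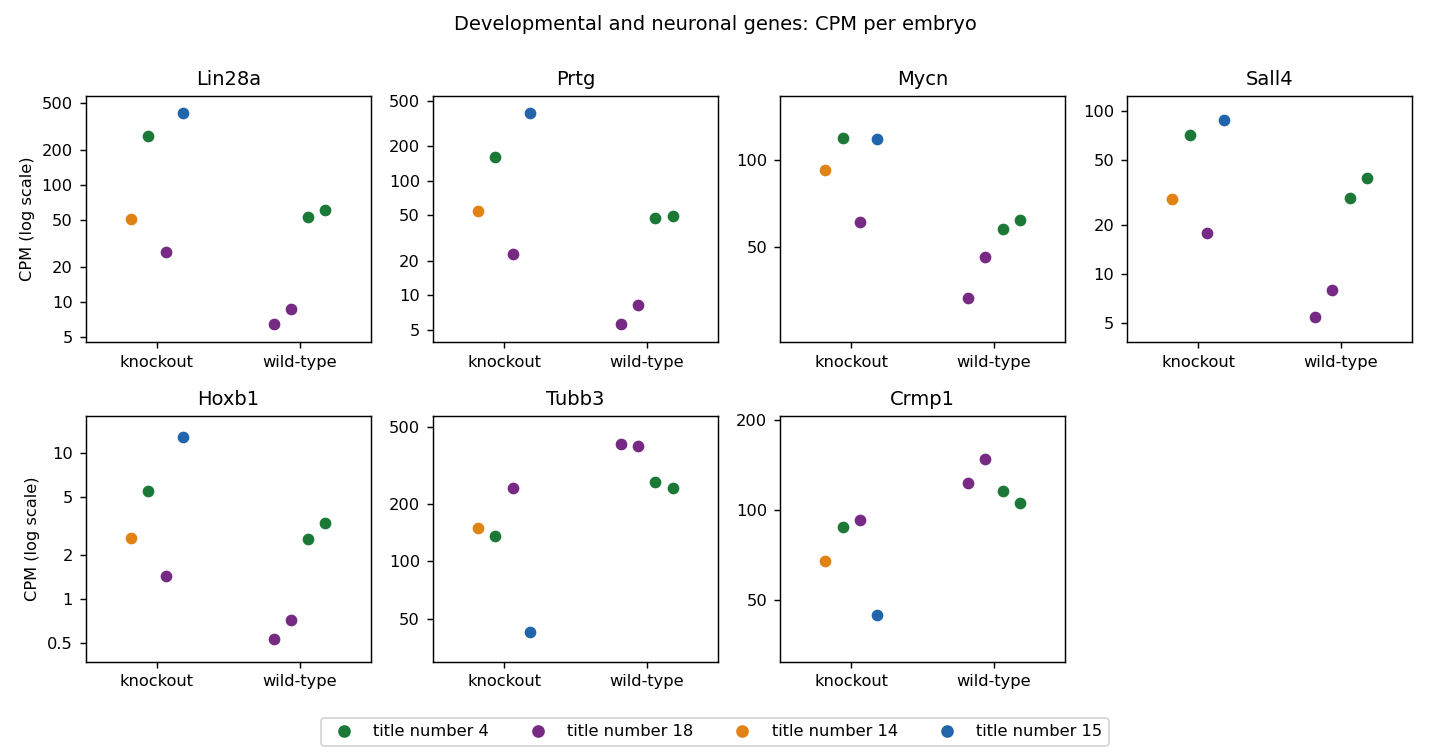
CPM per embryo on a log axis for 5 genes with higher and 2 neuronal genes with lower estimates in knockout embryos, coloured by title number. For Lin28a, Prtg, Sall4 and Hoxb1 the knockout embryo of title number 18 lies below the wild-type embryos of title number 4 yet above those of its own number, and Tubb3 is lowest in knockout 4.

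Tail bud genes followed the same order. Of 13 members of the presomitic mesoderm and tail bud list, 12 had a higher estimate, 5 at an unadjusted p under 0.05 and 6 within both title numbers, with a median of 1.48. Without knockout 4 the median was 0.71, with limma voom 0.56 and with a block of title number 0.89. The median member lay 0.66, 1.69, 0.26 and 2.57 above the wild-type mean in knockout 1 to 4, and at -0.15, -0.90, 0.22 and 1.38 in wild-type 1 to 4. Cdx2, a regulator of trunk and tail extension, had 1.41, 2.97, 0.382 and 13.7 against 0.568, 0, 0.195 and 1.09 CPM, and its relative Cdx4 0.822, 2.07, 0.336 and 13.5 against 0.207, 0, 0.449 and 1.34 CPM. Knockout 4 held most of the signal of both genes, and knockout 3 was inside the wild-type range. The summed level of the list was 64.4, 122, 44.3 and 183 CPM in knockout and 27.5, 29.04, 56.5 and 82.8 CPM in wild-type embryos. Brachyury (T), the tail bud and notochord regulator, differed by 1.73 ± 0.69 SE.

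Hox genes mark position from hindbrain to tail. Of 12 Hox genes of paralogue groups 1 to 4, 11 had a higher estimate, 4 at an unadjusted p under 0.05 and 5 within both title numbers, with a median of 0.46, and 0.16 with a block of title number or 0.25 without knockout 4. Hoxb1 had 2.61, 5.52, 1.45 and 12.9 against 0.534, 0.725, 2.59 and 3.32 CPM (1.65 ± 0.697 SE). Groups 5 to 8 had a median of 0.08 with 1 member at this p, and groups 9 to 13 a median of 0.15 with 2 of 16, and 0.39 with the block. Within title number 4 the medians were 0.32, 0.40 and 0.52 in this order of groups, and within 18 they were 0.25, -0.35 and 0.19. Of groups 9 to 13, Hoxb9 had 44.03, 46.2, 30.6 and 53.03 against 27.04, 28.8, 31.2 and 30.7 CPM (0.56 ± 0.21 SE). The difference between the Hox groups was not tested.

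All 20 genes of ribosome biogenesis had a higher estimate, 3 at an unadjusted p under 0.05 and 10 within both title numbers, with a median of 0.43. Its median member was 0.26, 0.71, -0.09 and 0.70 from the wild-type mean in knockout 1 to 4, and the list's difference was 0.47 within title number 4 and 0.12 within 18. With a block of title number the median was 0.26. Gnl3, a nucleolar GTPase of dividing progenitors, had 134, 152, 96.3 and 233 against 89.3, 69.8, 123 and 119 CPM (0.62 ± 0.27 SE), and Wdr12, a factor for the large ribosomal subunit, had 55.6, 75.6, 50.5 and 97.9 against 42.98, 39.4, 55.4 and 55.5 CPM (0.53 ± 0.21 SE). Knockout 4 was highest for both and knockout 3 lay inside the wild-type range. Of 15 FGF feedback genes, 14 had a higher estimate, 2 at this p and 8 within both title numbers, with a median of 0.34, and 0.38, 0.72, 0.16 and 0.29 from the wild-type mean in knockout 1 to 4. Without wild-type 1 or knockout 2 the median was 0.21. Etv5, a transcription factor induced by FGF, had 72.3, 89.2, 44.8 and 64.2 against 28.7, 42.98, 53.2 and 55.2 CPM (0.59 ± 0.26 SE), and the inhibitor Spry4 21.4, 24.3, 15.01 and 17.8 against 9.02, 12.5, 16.4 and 16.5 CPM (0.53 ± 0.22 SE). Genes of DNA replication (23) and mitosis (22) had 0 members at this p in either direction, with medians of 0.11 and 0.10.

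Signalling lists other than FGF were mixed. Of 17 Hedgehog pathway genes, 2 had a higher estimate at an unadjusted p under 0.05, among them Gli1, and 7 were higher and 2 lower within both title numbers. Of 15 Wnt targets, 3 had a higher estimate at this p, among them Notum, a secreted enzyme that switches Wnt ligands off. Notum had 17.3, 10.6, 11.4 and 9.41 against 5.39, 7.61, 6.603 and 8.199 CPM (0.81 ± 0.24 SE), without overlap. Notch pathway genes had 1 higher and 2 lower estimates at this p of 18, BMP and TGF-beta feedback genes 0 in either direction of 17, and retinoic acid genes 3 higher of 17, among them Hoxb1, which is also in the Hox list.

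Markers of newborn neurons were lower, though on balance not within title number 18. Of 18 members, 17 had a lower estimate, 9 at an unadjusted p under 0.05 and 7 within both title numbers, with a median of -0.84. The median member lay -0.86, -0.75, -0.14 and -1.76 from the wild-type mean in knockout 1 to 4 and -0.52, 0.27, 0.27 and -0.13 in wild-type 1 to 4. The list's difference was -0.86 within title number 4 and 0.08 within 18. Tubb3, a tubulin of young neurons, had 149.7, 136, 239.6 and 43.1 against 409, 400.1, 257 and 240.3 CPM (-1.202 ± 0.397 SE). Crmp1, which guides growing axons, had 67.4, 87.3, 92.6 and 44.3 against 123, 148, 115 and 105 CPM (-0.75 ± 0.22 SE). Knockout 4 was lowest for both, and knockout 3 lay under the lowest wild-type embryo. The median was -0.42 with a block of title number over all embryos and -0.53 with that block for numbers 4 and 18 alone. Without knockout 3 and wild-type 1 it was -1.27, and 12 members had a lower estimate at this p. Fewer neurons, less RNA per neuron and a difference in age of the embryos cannot be told apart here either.

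Of 13 forebrain and eye genes, 10 had a lower estimate, 3 at an unadjusted p under 0.05 and 1 within both title numbers, with a median of -0.68. This median was -0.39 within title number 4 and 0.09 within 18, -0.27 with a block of title number over all embryos, -0.21 with that block for numbers 4 and 18 alone, and -0.35 without wild-type 4. Lhx2, needed for eye and cortex, had 8.66, 19.2, 15.1 and 6.64 against 15.3, 23.6, 24.1 and 26.2 CPM (-0.84 ± 0.38 SE), with knockout 1 and 4 low, knockout 3 just below wild-type 1 and knockout 2 inside the wild-type range. Fezf2, a forebrain patterning factor, had 0.767, 2.16, 2.52 and 0.429 against 1.704, 2.59, 5.001 and 4.46 CPM (-1.23 ± 0.49 SE). Of 12 midbrain and hindbrain genes, 10 had a higher estimate, 3 at this p and 4 within both title numbers, with a median of 0.59. This was 0.72 within title number 4 and 0.12 within 18, 0.31 with the block over all embryos and 0.26 with limma voom. En2, of the midbrain and hindbrain boundary, had 8.09, 12.4, 2.78 and 8.97 against 1.86, 2.54, 5.43 and 3.56 CPM (1.27 ± 0.45 SE). Pax5, of the same boundary, had 10.3, 27.4, 1.66 and 20.97 against 1.29, 1.48, 8.08 and 3.91 CPM (2.03 ± 0.81 SE), and Pax8 1.21, 3.53, 1.36 and 7.204 against 0.585, 1.304, 1.21 and 0.955 CPM (1.71 ± 0.53 SE). For En2 and Pax5 knockout 1, 2 and 4 were above all wild-type embryos and knockout 3 was not.

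Floor plate and notochord genes had 4 higher and 1 lower estimates at an unadjusted p under 0.05 of 11 members, and 5 were higher within both title numbers. Noto, a notochord regulator, had 0.457, 0.978, 0.0458 and 1.195 against 0, 0.0145, 0 and 0.139 CPM, and Nkx2-9, a floor plate gene, had 0.603, 1.76, 0.0763 and 2.04 against 0.0689, 0.0435, 0.0898 and 0.243 CPM. Both are genes of low level, clear in knockout 1, 2 and 4 and near the wild-type level in knockout 3. Of 11 genes of sensory neurons and cranial ganglia, 9 had a lower estimate and 1 was at this p, Drgx, a regulator of pain-sensing neurons, with 0.859, 1.03, 1.02 and 0.337 against 1.55, 1.85, 1.98 and 1.56 CPM (-1.096 ± 0.37 SE) and no overlap. Motor neuron and neural progenitor lists had 0 and 1 members at this p.

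Melanoblast genes, of the pigment lineage in which Mfsd12 is known to act, had 7 lower and 5 higher estimates among 12 members, with 3 lower at an unadjusted p under 0.05 and 5 lower within both title numbers. The median was -0.27, and 0.20 with a filter of 1 CPM. The summed level of the list was 60.0, 56.1, 68.0 and 96.2 against 65.7, 69.6, 71.9 and 67.7 CPM, highest in knockout 4. Of the 12 members, 5 had their highest value in knockout 4 and 5 in wild-type 1. The 2 members given next are among the lower ones. Pmel, the fibril protein of melanosomes, had 4.86, 3.35, 6.87 and 3.13 against 11.7, 11.03, 9.79 and 6.48 CPM (-1.099 ± 0.27 SE), and only knockout 3 overlapped wild-type 4. Dct, a pigment enzyme, had 0.402, 0.332, 3.21 and 0.199 against 5.85, 4.54, 1.75 and 2.78 CPM (-1.84 ± 0.77 SE), with knockout 3 again in the wild-type range and the other knockout embryos far below. Surface ectoderm and placode genes had 1 higher and 1 lower estimate at this p of 18. The lower one was Pitx3, a lens regulator, at 0.0731, 0.0995, 0.0305 and 0.0613 against 0.465, 0.4202, 0.299 and 0.139 CPM, a very low level.

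Most genes of gut and lung endoderm were higher within both title numbers. Of 17 members, 16 had a higher estimate, 9 at an unadjusted p under 0.05, 10 within both title numbers and 4 without overlap, with a median of 0.67. The 1 lower member, Nkx2-1, which is also in the forebrain and eye list, reached this p too (-1.33 ± 0.58 SE). The median member lay 0.19, 0.57, 0.82 and 0.95 above the wild-type mean in knockout 1 to 4 and between -0.20 and 0.25 in wild-type embryos, where only knockout 1 overlapped, and 6 members had their highest value in knockout 3 and 7 in knockout 4. Krt8, an epithelial keratin, had 71.7, 77.7, 101 and 137 against 66.96, 42.5, 41.2 and 68.2 CPM (0.82 ± 0.42 SE), and Cldn6, a tight junction gene of embryonic epithelia, had 50.8, 66.8, 79.8 and 86.9 against 55.5, 42.4, 37.1 and 47.2 CPM (0.64 ± 0.201 SE). Cdx1, of the hindgut and tail, had 0.8404, 2.93, 0.214 and 3.77 against 0.0516, 0.362, 0.2396 and 0.712 CPM (2.502 ± 0.82 SE), with knockout 2 and 4 high. Without knockout 3 and wild-type 1 the list had 7 higher and 1 lower estimates at this p and a median of 0.69.

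Yolk sac endoderm genes and most hepatoblast genes were far higher in knockout 3 than in any other embryo. All 17 yolk sac genes tested, and 17 of 21 hepatoblast genes, had their highest value of the 8 embryos in knockout 3. The summed level of the yolk sac list was 165, 171, 849 and 222 CPM in knockout and 225, 208, 169 and 169 CPM in wild-type embryos, and that of the hepatoblast list 104, 123, 6119 and 49.2 CPM and 292, 276, 105 and 85.5 CPM. No member of either list was at 0 in all 4 wild-type embryos. Within both title numbers, 9 yolk sac and 13 hepatoblast members were higher, and 0 and 1 lower. The list medians within title number 4 were 0.46 and 0.85. The median members of knockout 2 lay -0.10 and 0.07 from the wild-type mean. They were above wild-type 3 and 4, and inside the range of all 4 wild-type embryos. Afp, a serum protein of yolk sac and fetal liver, had 31.1, 43.001, 3319 and 4.54 against 65.4, 73.9, 26.2 and 13.1 CPM, and Apob, of lipoprotein particles made by both tissues, 1.48, 0.895, 523 and 3.42 against 1.601, 3.91, 2.08 and 0.834 CPM. Without knockout 3 and wild-type 1, the yolk sac median went from 2.48 to 0.12 and the hepatoblast median from 2.40 to -0.38, with 1 and 0 higher estimates at an unadjusted p under 0.05 in place of 11 each. The source of these RNAs in knockout 3 was not tested. Lrp2, an endocytic receptor of yolk sac, kidney and neural tube, depended less on that embryo, with 29.7, 42.5, 106 and 87.4 against 9.42, 8.53, 27.9 and 34.3 CPM (1.73 ± 0.53 SE). Its wild-type embryos split by title number, and knockout 2 and 3 were each above those of their own number.

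Lists of other organs had few members at an unadjusted p under 0.05. Of 20 heart muscle genes, 10 estimates were higher and 10 lower, and the only one at this p was Nppa. Endothelial, smooth muscle and skeletal muscle lists had 0 members at this p among 16, 11 and 13. Of the smooth muscle and pericyte genes, 10 of 11 had a lower estimate and 2 were lower within both title numbers, with a median of -0.36. Limb bud, sclerotome and branchial arch lists had 2, 2 and 1 higher and 0, 1 and 0 lower estimates at this p among 15, 13 and 13. Of the sclerotome genes, 11 of 13 had a lower estimate, with a median of -0.35 that was 0.10 with a block of title number. Hand1, of the branchial arches, heart and extraembryonic mesoderm, had 20.6, 28.3, 8.52 and 54.8 against 10.9, 7.45, 14.6 and 18.8 CPM, with knockout 4 highest and knockout 3 in the wild-type range. Of 24 imprinted genes, 2 had a higher and 2 a lower estimate at this p, among them Phlda2, which restrains placental growth, at 0.731, 1.23, 7.72 and 5.81 against 1.36, 0.522, 0.569 and 0.539 CPM with knockout 3 and 4 high.

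**Figure D5:**
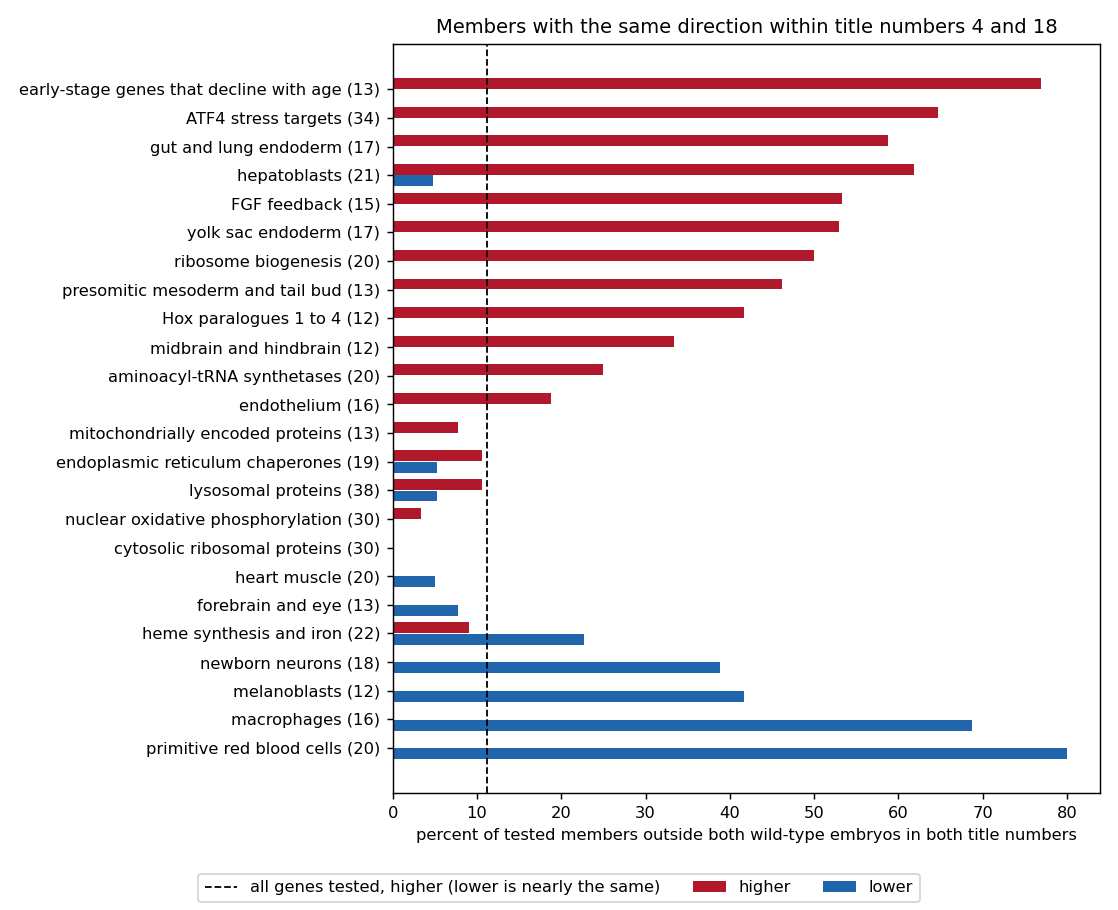
For 24 gene lists, bars give the percent of tested members that lie above (red) or below (blue) both wild-type embryos in title number 4 and again in title number 18, with the number tested in brackets. The dashed line marks 11.2% of all genes tested; the early-stage, ATF4, endoderm and red cell lists extend far beyond it, and lysosomal, ribosomal protein and heart lists do not.

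Lysosomal genes did not stand out in embryos without the lysosomal transporter. Of 38 genes of lysosomal proteins, 18 estimates were higher and 20 lower, 0 at an unadjusted p under 0.05 in either direction, and 4 were higher and 2 lower within both title numbers. The list median was -0.03. Lamp1, the main glycoprotein of the lysosomal membrane, had 214, 239, 282 and 187 against 283, 259, 193 and 215 CPM, and Psap, the precursor of sphingolipid activators, 232, 223, 262 and 350.2 against 285, 295, 242 and 269.9 CPM, with the groups overlapping in both. Of 15 proton pump genes and 23 autophagy genes, 12 and 17 had a lower estimate and 1 of each was at this p. TCACGTGA, the letters bound by the lysosomal regulators TFEB and TFE3, stood in 14.7% of 34 promoters of lysosomal genes and in 1.43% of all promoters. That share describes the genes chosen for the list and not these embryos. For the 100 higher and 100 lower genes it stood in 1 of 71 and 0 of 92 promoters. These counts are too small to show a share below that of all promoters.

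Of 29 genes of glutathione and cysteine metabolism, 4 had a higher and 5 a lower estimate at an unadjusted p under 0.05. The higher ones include the ATF4 targets Chac1, Cth and Slc7a11, and the lower ones Mfsd12 itself and Gpx1. The list median was -0.10. Of 24 cholesterol synthesis genes, 19 had a lower estimate, 5 at this p, and 1 was higher at this p. The list median was -0.17, but -0.31 within title number 4 and 0.25 within 18. Within both numbers 2 members were higher and 3 lower, where 11% of all genes were lower. Without knockout 3 and wild-type 1, 2 members were lower at this p.

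Several housekeeping lists pointed in opposite directions in the title numbers. The 30 cytosolic ribosomal proteins had a median of 0.56 within title number 4 and -0.46 within 18, and the 30 nuclear genes of oxidative phosphorylation 0.26 and -0.46. Neither had a member at an unadjusted p under 0.05 in the whole comparison, and their medians there were 0.04 and -0.18. The 13 proteins encoded by mitochondrial DNA had -0.09 within title number 4 and 1.14 within 18, and all 13 had a higher estimate with 0 at this p. COX1, a subunit of cytochrome oxidase, had 6273, 6664, 7985 and 7777 against 2885, 5535, 6938 and 5435 CPM (0.46 ± 0.22 SE). Wild-type 1 was lowest, wild-type 2 and 4 also lay below all knockout embryos, and wild-type 3 lay among them. Without wild-type 1 the list's median went from 0.49 to 0.26. Fibrillar collagens and matrix had -0.59 and 0.50, and basement membrane genes -0.15 and 0.82. Without knockout 3 and wild-type 1, all 30 ribosomal proteins had a higher estimate, 5 at this p, and the median was 0.38.

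In a fit of the embryos of numbers 4 and 18 alone, 2 heterozygous embryos included, and with that number blocked, edgeR called 13 of 21492 genes (0.0605%), 12 of them higher. These genes were singled out after their values were seen. Mfsd12 was the 1 lower gene, at a log2 fold change of -1.90 (adjusted p = 0.0170). Apoa4, S100g, Napsa and Pla2g12b were by far highest in knockout 3, where Apoa4 reached 275 CPM. Slc7a3, a transporter of cationic amino acids and an ATF4 target, had 93.9, 41.97, 5.43 and 18.2 against 0.861, 0.348, 1.84 and 2.35 CPM (edgeR adjusted p = 0.00951 with the block). Stc2, a stress-induced secreted protein, had 32.05, 23.5, 6.85 and 17.7 against 1.48, 1.64, 3.95 and 3.98 CPM (edgeR adjusted p = 0.0140 with the block). Neither overlapped, although the library labelled heterozygous 2 had 109.9 CPM of Slc7a3 and 74.3 CPM of Stc2, as high as any knockout embryo.

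Car4, a membrane carbonic anhydrase, had 2.27, 11.9, 17.4 and 39.5 against 2.36, 2.14, 2.13 and 2.64 CPM, so knockout 2, 3 and 4 were high and knockout 1 was not (edgeR adjusted p = 0.00451 with the block). Mogat2, an enzyme of fat absorption, had 15.3, 59.6, 32.1 and 54.6 against 16.7, 13.6, 21.2 and 24.7 CPM (edgeR adjusted p = 0.0485 with the block), again with knockout 1 at the wild-type level. Lin28a, Prtg and Eda2r were also called within these title numbers, with edgeR adjusted p = 0.00951, 0.0422 and 0.0254 with the block. With all 12 embryos and the title number as a block, 2 genes were called (0.00963%), S100g and Napsa, both highest in knockout 3.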

How the data were processed

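RNA of 12 whole embryos was sequenced after a strand-marking mRNA kit, from 325 ng of RNA each, per the labels' protocols. Values are expected counts, estimated reads per gene without normalization, in 1 table that the authors deposited and made with featureCounts 2.0.6 on the RefSeq annotation of GRCm39 per the file headers. Multimapping and overlapping reads added fractions, each mate was counted, and strand was not used, so reads of antisense partners and of near copies such as Hba-a1 and Hba-a2 are shared. DRAGEN and Subread are named in the submitters' processing notes. The protocols mention spike-in RNA, for which the table holds 0 genes.

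Counts were rounded to whole numbers, filtered with filterByExpr, scaled by TMM and tested two-sided with edgeR 4.0.16 (robust quasi-likelihood, R 4.3.3), with 1 mean per genotype over all 12 embryos and Benjamini-Hochberg adjustment at 0.05. SE is the fold change divided by the root of its F statistic. CPM uses TMM-scaled totals, and log2 CPM a prior count of 2. Totals lay between 53133084 and 67977990 reads. Replicate numbers are in deposition order and pair nothing; the title number was used only for values within numbers 4 and 18 and as a block. Alternatives were DESeq2 1.42.0, limma 3.58.1 (voom with sample weights), other scalings and filters, an Xist covariate, removal of globin, mitochondrial and ribosomal RNA genes, the 8 embryos alone, and each embryo left out; the fit without knockout 3 and wild-type 1 was added after seeing the data. The calculations were tested on simulated data.

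Leading genes are the 12 per direction with the smallest p among genes with no overlap between genotypes, the same direction within both title numbers, at least 2 CPM in the higher genotype and no predicted or small RNA symbol. Of each list, up to 4 members with the smallest p and the 2 with the highest level could be named, and near Mfsd12 the genes at an unadjusted p under 0.05. Genes of the blocked fit were chosen after their values were seen. A few genes that met these rules are not reported here. All members and lists were chosen with earlier results of these data known.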

Additional observations from a re-analysis of the deposited data

Results flagged for a closer look

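In 21 of 320 groups of 4 embryos checked, 1 embryo stood apart: its gap to the next embryo, as a share of the group's range, was above Dixon's critical value for 4 samples. For independent, normally distributed values chance gives about 1 in 20 such groups, and 6.56% were found. Many groups here are linked, and genes were chosen with their values known, so these shares cannot be compared closely. Among knockout embryos, knockout 3 was highest for Apoa4 (0.998), Apob (0.995), Afp (0.988), Napsa (0.985), S100g (0.971), Tmprss2 (0.926), Pla2g12b (0.923), Dct (0.933), and the list medians of yolk sac endoderm (0.955) and lysosomal proteins (0.852), and lowest for Gli1 (0.875). Tmprss2, a protease gene of the yolk sac list, had 4.53, 4.21, 39.4 and 6.82 CPM in knockout 1 to 4. Knockout 4 was highest for Serpinb9b (0.937) and Cdx4 (0.868) and lowest for Ap3b2 (0.838). Knockout 1 was lowest for Gpx1 (0.906).

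Among wild-type embryos, wild-type 1 was highest for the globin share (0.837), Slc4a1 (0.871), Alas2 (0.942) and Phlda2 (0.944), wild-type 2 for the median of sclerotome and cartilage genes (0.953), and wild-type 4 for Noto (0.896).

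For 15 of 64 lists the median of the knockout embryo lay beyond both wild-type embryos in 1 direction within title number 4 and in the other within 18. The difference between these directions was not tested, since each number holds 1 knockout embryo. With so few embryos per number, chance alone also puts lists in opposite outer positions. The share expected by chance was not set beside this count, so the count by itself does not show that the numbers disagree. The median within title number 4 minus that within 18, in log2 CPM, was largest for cytosolic ribosomal proteins (1.02), Hox paralogues 5 to 8 (0.75), nuclear oxidative phosphorylation (0.72), heart muscle (0.61), cytosolic heat shock (0.46), glutathione and cysteine metabolism (0.44), immediate early genes (0.39) and DNA replication (0.37). It was smaller for autophagy (0.25), NRF2 antioxidant targets (0.25) and apoptosis (0.10). It was negative for fibrillar collagens and matrix (-1.09), basement membrane (-0.97), cholesterol synthesis (-0.56) and neural progenitors (-0.42).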

How the results depend on the processing

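The count of genes past the adjusted threshold, 0 in edgeR, was 122 with DESeq2, 2 with a block of title number over all embryos, 13 with that block for numbers 4 and 18 alone, 1 without knockout 3 and wild-type 1 together, and 0 to 1 with single embryos left out (Car4 without knockout 1, Chac1 without knockout 3). Same-numbered embryos did not deviate together throughout (r across genes of -0.077 and 0.16 for knockout 2 with wild-type 3 and 4, 0.28 and 0.32 for knockout 3 with wild-type 1 and 2). With embryos of the other number, r was 0.079 and -0.20 for knockout 2 with wild-type 1 and 2, and -0.27 and -0.45 for knockout 3 with wild-type 3 and 4, so number 18 grouped and number 4 did not in every pair. The title number therefore serves as a block only in alternative fits. These gave the calls described above, the blocked medians of the lists and the values here. At an unadjusted p under 0.05, higher estimates numbered 1625 without a filter and 530 with a filter of 1 CPM, and 431 to 1266 with single embryos left out, and lower estimates 408 to 1606, where knockout 3 and 4 set the extremes. Their higher share was 51.0%, and 61.1% without a filter, 63.5% without knockout 1, 63.4% without knockout 2, but 42.2% with limma voom, 44.0% with a filter of 1 CPM and 44.1% without knockout 3. Mfsd12 passed the adjusted threshold with DESeq2 at -2.0003 and in the blocked fit of numbers 4 and 18 at -1.90. With single embryos left out, log2 fold changes ranged from -0.76 to 4.65 for Afp, -0.11 to 6.44 for Apob and -0.23 to 8.91 for Apoa4, each lowest without knockout 3, and without knockout 3 and wild-type 1 they were -0.52 for Afp and -0.22 for Apob. Of 1822 values for 92 named genes, 5 changed sign, these negative values of the 3 genes. The globin difference of -2.74 percentage points was -1.15 without wild-type 1, and that of ribosomal RNA, 0.121, was 0.0521 without knockout 4. Medians changed sign under some setting for the hepatoblast, melanoblast (0.20 with a filter of 1 CPM), HIF (-0.14 with the block over all embryos) and oxidative phosphorylation lists (0.05 without knockout 3 and wild-type 1), for motor neurons (-0.28, and 0.03 with the block over all embryos), sclerotome (-0.35, and 0.10 with that block) and megakaryocytes (-0.47, and 0.11 with the block for numbers 4 and 18), and for lists with medians nearer to 0. With limma voom the early-stage median of 0.98 was 0.39, and with the block over all embryos that of aminoacyl-tRNA synthetases, 0.47, was 0.20.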
